A study of Bos indicus x Bos taurus with 45 samples.

Results

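MicroRNAs (miRNAs) of the tongue were compared with those of the liver in 5 control bovine fetuses, each of which gave 1 library of either tissue. These are 10 of the 45 small RNA libraries of the study, chosen by their column labels (controls 1 to 5 of the tongue and liver tables) and paired by fetus number. The comparison covers the 431 miRNAs that both tables list, of 460 in tongue and 563 in liver. All 5 fetuses were Bos indicus x Bos taurus crosses, conceived by artificial insemination, labelled healthy and collected at about day 105 of gestation. The tongue labels give these 5 as female, and the liver labels give no sex. The study set such controls beside fetuses with large offspring syndrome, an overgrowth condition of ruminants. No treatment or transgene is shared by the groups compared here, and each library is bulk tissue. Tongue and liver were tabulated separately, and cutadapt is named in the processing notes of tongue alone, so tissue and processing cannot be told apart in any difference given here.

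An miRNA is cut from a hairpin precursor whose arms give a 5p and a 3p product, usually with 1 arm more abundant. The loaded product guides Argonaute to messenger RNAs that match its seed and lowers their translation or stability. Fetal tongue is built of striated muscle under a squamous epithelium, with connective tissue, vessels and nerves. Fetal liver holds hepatocytes and, before birth, serves as a main site of blood cell formation, so its RNA mixes hepatocyte, red cell and white cell products. In bulk tissue, fewer cells of a type and less of an miRNA per cell cannot be told apart.

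The liver libraries held 3379816 to 4134460 listed reads and the tongue libraries 9686419 to 13822348, with no count of 0 and a lowest count of 4 in liver and 12 in tongue. The depth differs by tissue, and the lowest liver values are the least precise. The shared miRNAs held 97.6% to 97.8% of the listed reads in liver and 99.5% to 99.6% in tongue. Levels below are scaled CPM: the count relative to all listed reads of the library, divided by its TMM factor (trimmed mean of M values, edgeR's correction for unequal composition), given as mean ± SD over 5 fetuses. The factors lay between 1.26 and 1.31 in liver and between 0.718 and 0.843 in tongue. All differences are log2, tongue minus liver, from edgeR's fit with the fetus as a block. The value after ± is the standard error (SE). For differences in level it was derived as the absolute difference over the square root of the fit's quasi-likelihood F.

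Tongue and liver differed at most shared miRNAs. By edgeR's quasi-likelihood test at an adjusted p under 0.05 (Benjamini-Hochberg), 207 of 431 miRNAs were higher in tongue (48%) and 167 lower (38.7%), 86.8% in all. Past 2-fold, tested with edgeR's glmTreat against a log2 difference of 1, 117 were higher (27.1%) and 84 lower (19.5%), 46.6% in all. The 5 tongue values lay wholly outside the 5 liver values for 336 miRNAs (78%), above them for 186 (43.2%) and below for 150 (34.8%). The median absolute difference was 1.12 and the median SE 0.118, while the SD between fetuses of 1 tissue had a median of 0.145 in liver and 0.197 in tongue. "Past 2-fold" below always means the glmTreat call at an adjusted p under 0.05, and a list's count is to be read against these shares.

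The balance of higher and lower calls depended on the scaling. With no scaling beyond library totals the median difference of all miRNAs moved from 0.18 by -0.71, and the calls past 2-fold became 80 higher and 148 lower. RLE scaling (DESeq2's size factors) moved it by -0.18 and gave 102 and 95. Upper-quartile scaling moved it by -0.39 and gave 89 and 114. Of the 201 calls past 2-fold, 164 were called in the same direction under each of 5 scalings, 80 of the 117 higher and 84 of the 84 lower. The other scalings, among them TMM without the 3 most abundant miRNAs (-0.04), all moved the median down. A lower call could therefore hardly be lost, so its holding under each scaling is no support for it. The share of the higher calls among all past 2-fold was 58.2% with TMM, 51.8% with RLE, 43.8% with upper-quartile scaling and 35.1% without scaling.

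**Figure D1:**
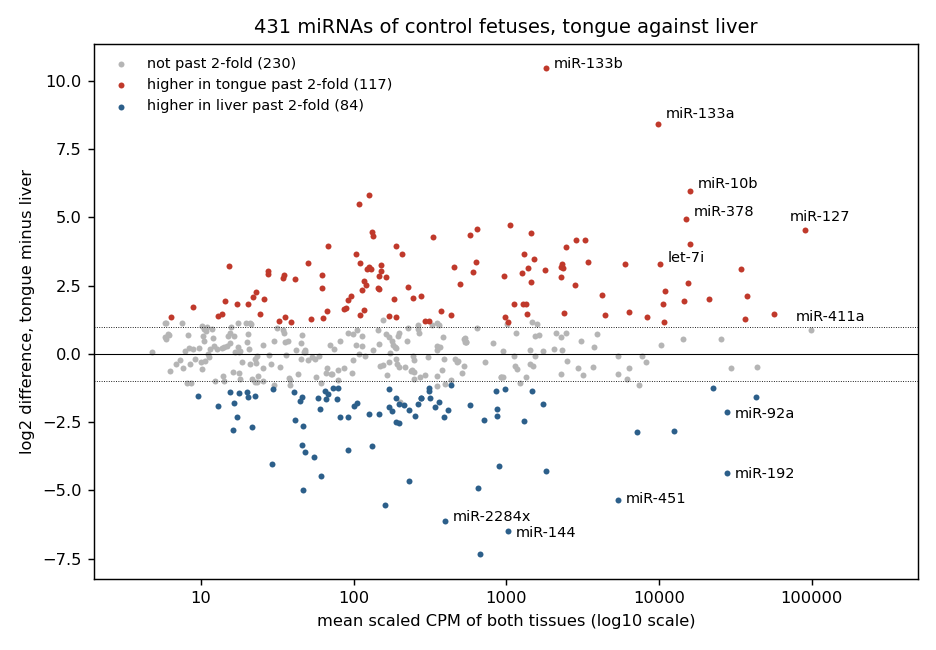
Each point is 1 of the 431 shared miRNAs, with the mean scaled CPM of both tissues on a log10 axis and the log2 difference, tongue minus liver, on the vertical axis. Red and blue points passed the 2-fold test, dotted lines mark a log2 difference of 1 in either direction, and miR-133b at 10.47 and miR-144-5p at -7.35 are the extremes.

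The same number of miRNAs, 9, held 50% of the listed reads in each tissue, but different ones led. miR-127, from the imprinted DLK1-DIO3 domain, was the most abundant in tongue with 13.5% of listed reads. miR-411a of the same domain led in liver, with 9.02%. After miR-127, the most abundant in tongue were miR-411a at 128139 ± 13271, miR-26a at 84168 ± 24364, miR-381 at 61573 ± 9865 and miR-181a at 61469 ± 8863 scaled CPM. After miR-411a, liver had miR-148a at 64592 ± 4513, miR-192 at 53350.1 ± 3956, miR-143 at 51270.2 ± 5367 and miR-92a at 45588 ± 2253. miR-411a itself differed by 0.86 ± 0.08 (edgeR adjusted p = 9.69e-06), short of the 2-fold call. miR-26a (1.46 ± 0.15) and miR-181a (2.12 ± 0.12) were past 2-fold higher in tongue, although miR-26a stood at 0.74 without scaling and lost that call there and with upper-quartile scaling (1.07).

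The miRNAs of striated muscle showed the widest gap. miR-133a, which restrains smooth muscle genes and proliferation in muscle cells, stood at 49.3, 52.5, 57.9, 63.7 and 58.4 scaled CPM in the livers of fetuses 1 to 5. In the tongues of the same fetuses it stood at 16246, 21800.2, 20498, 16999.8 and 22711. Every tongue was thus far above every liver, by 8.44 ± 0.14 on the log2 scale (edgeR adjusted p against 2-fold = 8.98e-10). miR-133b, made with miR-206 from a separate locus, was at 1.74, 2.59, 4.00, 0.937 and 3.45 in liver, from 4 to 20 reads per library, and at 2853, 4062, 3842, 4068 and 3465 in tongue. Its difference, 10.47 ± 0.25, was the largest of the 431, and counting error is large on the liver side.

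All 3 shared members of the skeletal muscle list were past 2-fold higher in tongue, with a median difference of 8.44, beside 27.1% and a median of 0.18 over all shared miRNAs. The third, miR-499, which is encoded in a slow myosin gene, was low in both tissues: 7.11 ± 1.46 in liver and 18.9 ± 3.69 in tongue (1.40 ± 0.19), and the 2-fold call was lost without fetus 1 or 2 and with RLE, upper-quartile or no scaling. A further 5 members were listed in tongue and not in liver, among them miR-206 at 699 ± 134 CPM, miR-1 at 366 ± 62.5 and miR-208b at 24.0 ± 12.0 (unscaled, n = 5). miR-206 is the skeletal muscle relative of miR-1, and miR-208b is encoded in a slow myosin gene. No fold is given for miRNAs missing from a table, since the floor that kept them out is not given in the sources used here.

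Skeletal muscle libraries of controls 1 to 4 gave values to set beside these. Of 415 miRNAs shared by muscle and liver, 104 were past 2-fold higher in muscle (25.1%) and 92 lower (22.2%), 47.2% in all. The liver libraries serve both comparisons, so values stand side by side and no overlap is read. miR-133a and miR-133b differed from liver by 8.53 and 10.78 in muscle. The slow myosin miRNAs stood otherwise: miR-499 was 6.40 above liver in muscle against 1.40 in tongue. miR-208b stood at 896 CPM in muscle against 24.0 in tongue, and miR-206 at 799 against 699. These are unscaled means of 4 muscle and 5 tongue libraries, so a small gap such as that of miR-206 sets no order. The difference between tongue and muscle was not tested.

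Mesenchyme and fibroblast miRNAs were higher in tongue throughout. miR-199a and miR-214 are made from 1 transcript, antisense within a dynamin gene, and are typical of connective tissue and its precursors. miR-199a-3p stood at 2452, 1582, 1612, 2501 and 1363 scaled CPM in liver and 28099.5, 30431, 29732, 31424 and 30792 in tongue, a difference of 4.03 ± 0.17 (edgeR adjusted p against 2-fold = 8.23e-08). miR-214 stood at 104, 65.4, 64.7, 108 and 56.9 in liver and 1833, 2154, 1952, 2479.8 and 1733 in tongue, and differed by 4.71 ± 0.16. In both, the tongues lay close together and far from the livers. miR-199a-5p and miR-199b, the latter from another dynamin gene, differed by 4.16 ± 0.16 and 3.15 ± 0.10. All 6 listed members were past 2-fold higher under each of the 5 scalings, from 3.15 to 4.71, with a median of 4.22. Summed, they were 0.281% to 0.495% of the listed reads in liver and 3.20% to 3.55% in tongue. In muscle the median difference from liver was 3.25.

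Epithelial miRNAs were higher in tongue, unevenly. The miR-200 family (miR-200a, miR-200b, miR-200c, miR-141 and miR-429) holds cells in an epithelial state by repressing ZEB factors, and is made from 2 clusters. miR-141 stood at 38.1, 41.7, 55.1, 101 and 42.5 in liver and 1549, 874, 1312, 1179.7 and 640.1 in tongue (4.34 ± 0.25), and miR-200c, of the same cluster, differed by 3.67 ± 0.19. The other cluster differed less: miR-200a by 1.56 ± 0.18, miR-200b by 1.24 ± 0.23 and miR-429 by 1.05 ± 0.14, of which only miR-200a was past 2-fold, a call lost with no scaling and with upper-quartile scaling.

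miR-182 and miR-183, from a cluster known in sensory epithelia, differed by 3.66 ± 0.26 and 3.95 ± 0.24. miR-182 stood at 159.6, 152, 169, 249.8 and 194 in liver and 4026, 1847, 2793, 1799.8 and 1720.1 in tongue, so the tongues were all higher but spread widely. Kidney stood near tongue in both. Scaled together over controls 1 to 4, miR-182 was at 1790 CPM in tongue, 1438 in kidney, 166 in liver and 58.5 in muscle. In the same order, miR-183 was at 269, 216, 20.1 and 10.6. miR-31 differed by 0.57 ± 0.11 and by -0.15 with no scaling. In all, 5 of 11 shared members were past 2-fold higher and none lower, with a median of 1.24. miR-205, the defining miRNA of squamous epithelium, was listed in tongue and not in liver, at 3179, 2559, 3535, 2266 and 2085 CPM in fetuses 1 to 5 (unscaled), and stood at 24.4 in muscle. Fetuses differ in these: the list held 0.143% to 0.180% of the listed reads in liver and 0.323% to 0.738% in tongue.

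**Figure D2:**
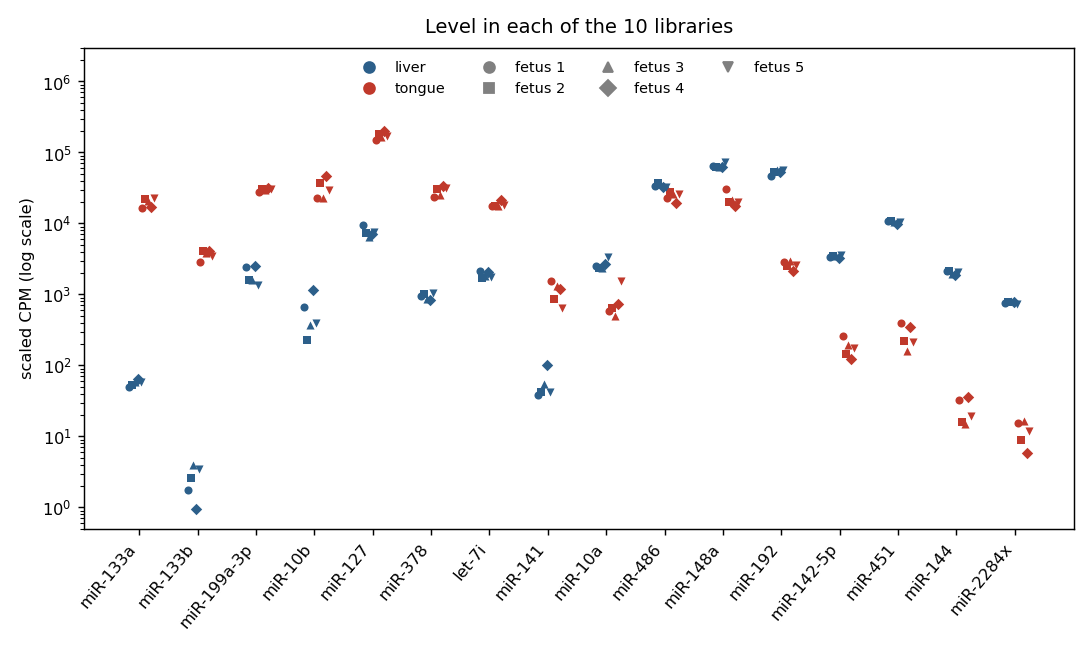
Scaled CPM on a log axis for 16 miRNAs in each of the 10 libraries, liver in blue and tongue in red, with the marker shape giving the fetus. The tissues do not overlap for any of the 16, from miR-133a (higher in tongue) to miR-2284x (higher in liver), and miR-486 shows the narrowest gap.

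Hepatocyte miRNAs were higher in liver. miR-122, the defining miRNA of hepatocytes, was listed in liver and not in tongue, at 17643, 19597, 18343, 18685 and 19199 CPM in fetuses 1 to 5 (unscaled). Its other arm, miR-122-3p, was at 1061 ± 61.3, and miR-885 at 53.6 ± 6.03, neither listed in tongue. miR-192, of liver, kidney and gut, stood at 47059, 53905, 57029.5, 52502 and 56255 scaled CPM in liver and 2838, 2518, 2980.1, 2158 and 2598 in tongue, a difference of -4.35 ± 0.11 (edgeR adjusted p against 2-fold = 1.30e-08). miR-194, made with it, differed by -4.10 ± 0.12, and with miR-215 these are the kidney and gut list, 2 of 3 past 2-fold lower. miR-148a, abundant in both tissues, stood at 63872, 62956, 61447, 62182 and 72503 in liver and 30184, 19897, 21147, 17832 and 20106 in tongue (-1.59 ± 0.12).

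Of the 6 shared members of the hepatocyte list 4 were past 2-fold lower in tongue and none higher, with a median of -1.70. All 4 held under each scaling, a check that could hardly remove lower calls. miR-101 differed by -0.92 ± 0.08, short of that call, and its other arm, miR-101-1-5p, by 1.13 ± 0.11. The list held 15.7% to 17.5% of the listed reads in liver and 1.80% to 3.14% in tongue. miR-215, which shares the miR-192 seed, stood at 163, 236, 193, 785 and 209 in liver and 34.1, 155, 134, 51.5 and 62.9 in tongue. Its difference of -1.76 ± 0.47 had an edgeR adjusted p of 0.00640, missed the 2-fold test (0.0516), and was -1.26 without fetus 4. With all 9 tongue controls and no fetus block it was -0.41, with an edgeR adjusted p of 0.65, while dropping the block alone gave -1.85.

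In both blood cell lists, red and white, every call past 2-fold was lower in tongue. miR-451 and miR-144, made from 1 erythroid transcript driven by GATA1, were far lower in tongue. miR-451 stood at 10665, 10815, 10578, 9883 and 10506 in liver and 397, 221, 161, 346 and 213 in tongue (-5.37 ± 0.22, edgeR adjusted p against 2-fold = 6.51e-08). miR-144 stood at 2121, 2157, 1937, 1855 and 2052 in liver and 33.0, 15.8, 14.9, 35.5 and 19.6 in tongue (-6.50 ± 0.25), and its other arm, miR-144-5p, had the most negative difference of all, -7.35 ± 0.26. Tongues of fetuses 1 and 4 had the highest miR-451 and miR-144 of the 5. miR-486, abundant in red cells and also made from the ankyrin gene in striated muscle, stood apart from these: it was 33902, 37718, 35855, 32492 and 32724 in liver and 23186, 27515, 25917, 19166 and 26092 in tongue (-0.51 ± 0.09), and 0.54 in muscle against liver. The 5 listed members gave 3 past 2-fold lower and none higher, with a median of -5.37.

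Among white cell miRNAs, miR-142, made across blood lineages, was lower in tongue in both arms. miR-142-5p stood at 3322, 3518, 3517, 3274 and 3643 in liver and 256, 145, 196, 125 and 178 in tongue (-4.30 ± 0.16), and miR-142-3p differed by -4.65 ± 0.14. miR-150 of lymphocytes differed by -2.22 ± 0.10, miR-146a by -1.38 ± 0.10, and miR-223 of granulocytes was listed in liver and not in tongue, at 118 ± 16.8 CPM. miR-155 (0.37 ± 0.10) and miR-342 (0.10 ± 0.11) were not past 2-fold, and both changed sign with no scaling. Altogether 4 of 8 were past 2-fold lower and none higher, with a median of -0.64. The list held 0.640% to 0.706% of the listed reads in liver and 0.0929% to 0.145% in tongue.

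With TMM scaling, vessel and smooth muscle miRNAs showed no call past 2-fold. The median of the smooth muscle list was -0.19, and -0.91 with no scaling. miR-126, made from the endothelial gene EGFL7, differed by 0.34 ± 0.09 in its 5p arm and 0.60 ± 0.13 in its 3p arm, and both changed sign with no scaling (-0.38 and -0.12). miR-143, of smooth muscle, stood at 55072, 47767, 51932, 57408 and 44171 in liver and 39258, 36279, 35235, 36774 and 36789 in tongue (-0.47 ± 0.08, edgeR adjusted p = 0.000674), lower in every tongue than its liver. miR-145, made with miR-143, differed by -0.84 ± 0.11, but its other arm, miR-145-3p, differed by 0.72 ± 0.12.

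The 2 shared miRNAs of the HOX clusters went in opposite directions. miR-10a lies in the HOXB cluster and miR-10b in the HOXD cluster, and their mature sequences differ at a single central base. miR-10b stood at 662, 226, 371, 1156 and 396 in liver and 23039, 37302, 22461, 46145 and 29270.3 in tongue (5.97 ± 0.35, edgeR adjusted p against 2-fold = 6.24e-07). miR-10a stood at 2494, 2346, 2368, 2674 and 3395 in liver and 590.1, 649, 499, 739 and 1561 in tongue (-1.83 ± 0.15, edgeR adjusted p against 2-fold = 0.000142). Neither set of ranges overlapped, and the fetuses spread widely in both: fetus 4 had the highest miR-10b of both tissues, and fetus 5 the highest miR-10a of both. In muscle the differences from liver were 7.91 and 0.96. How reads that match both miRNAs were shared is not given in the sources used here. Another member of the list, miR-196b, was listed in liver and not in tongue, at 7.77 ± 2.67 CPM, and stood at 333 in muscle (unscaled).

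Neural miRNAs were scarce, and of 6 shared members 1 was past 2-fold higher and 1 lower. miR-9, of neural precursors, was higher in tongue, at 71.6 ± 15.7 against 10.7 ± 1.33 in liver (2.73 ± 0.17). miR-7, of neuroendocrine cells, was lower in tongue, at 7.72 ± 4.47 against 25.5 ± 2.08 in liver (-1.79 ± 0.31). miR-128 (-0.17 ± 0.15) did not pass the test at an adjusted p under 0.05. miR-138 (-0.53 ± 0.21) passed it, but not without the fetus block, nor without fetus 2, 3, 4 or 5. miR-375, of endocrine cells and taste and airway epithelium, stood at 1131, 1179, 1075, 1552 and 1229 in liver and 231, 16.4, 65.1, 20.1 and 23.3 in tongue. All livers were above all tongues (-4.93 ± 0.64), and the difference was -5.59 without fetus 1, whose tongue was the highest.

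The DLK1-DIO3 domain, an imprinted cluster whose many miRNAs are made from the maternal chromosome, was abundant in both tissues. Its 78 shared members together took 19.9 ± 0.146% of the listed reads in liver and 38.0 ± 2.07% in tongue (SD, n = 5), with miR-127 alone giving 13.5% in tongue. The members did not move as a block: 14 were past 2-fold higher (17.9%, against 27.1% of all shared miRNAs), 8 lower (10.3%, against 19.5%) and 56 neither. Their median difference was 0.41, but -0.31 with no scaling and 0.02 with upper-quartile scaling, so its sign depends on the scaling. Under each of the 5 scalings 7 of the 14 higher calls held. The 8 lower ones held too, but the other scalings could hardly remove lower calls.

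miR-127, which is antisense to the imprinted gene RTL1, stood at 9507, 7250.5, 6367, 7047 and 7607 scaled CPM in liver and 147554, 182372, 163064, 203141 and 172859 in tongue. The difference was 4.53 ± 0.15 (edgeR adjusted p against 2-fold = 2.15e-08), and muscle differed from liver by 4.26. miR-381 differed by 3.10 ± 0.10, from 7133 ± 340.0 to 61573 ± 9865, and miR-410 by 2.03 ± 0.10. Among the lower calls were miR-1185-3p at -2.54 ± 0.17, miR-323b-3p at -2.50 ± 0.10, miR-494 at -2.43 ± 0.14 and miR-411c-3p at -2.04 ± 0.10. Members of this domain thus spanned -2.54 to 4.53. miR-380-3p, at -0.07 ± 0.08, was among the closest to 0.

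**Figure D3:**
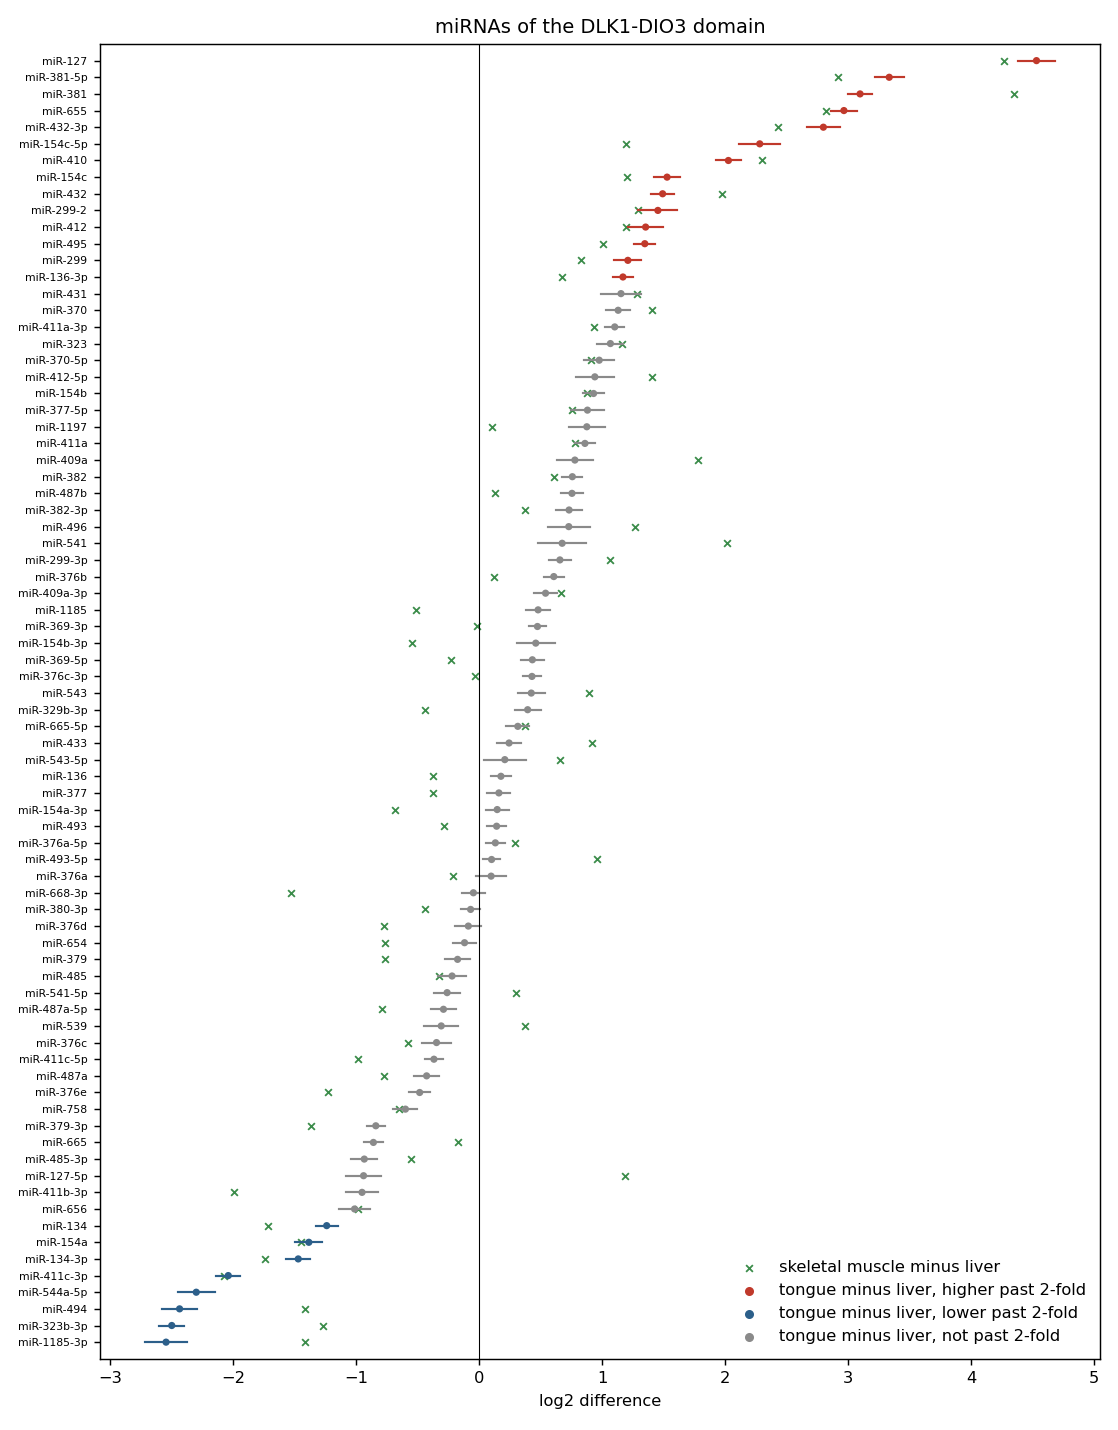
Log2 differences of the 78 DLK1-DIO3 miRNAs, tongue minus liver, with bars of 1 SE, ordered by size. Red and blue points were past 2-fold higher (14) and lower (8), gray points were not (56), and green crosses give muscle minus liver for the 77 members listed in muscle, from 4 fetuses and the same liver libraries. With no scaling all tongue points sit about 0.71 lower and the median falls below 0.

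Other miRNAs in imprinted genes went both ways. miR-335, in an intron of the paternally expressed MEST, stood at 170.3, 125, 103, 131 and 119 in liver and 2678, 2654, 2895, 2989 and 2747 in tongue (4.44 ± 0.13), and its other arm, miR-335-3p, differed by 2.12 ± 0.19. miR-483, in an intron of the fetal growth factor gene IGF2, was lower in tongue (-1.62 ± 0.12). It stood at 386, 459, 573, 565 and 405 in liver and 136, 149, 161, 149 and 174 in tongue, with no overlap. miR-296-3p, from a locus beside GNAS, was lower too (-2.22 ± 0.13) while its other arm, miR-296-5p, was not called (-0.11 ± 0.19). Of 5 members, 2 were past 2-fold higher and 2 lower.

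let-7 miRNAs, which restrain growth genes such as HMGA2 and LIN28 and accumulate as tissues mature, were higher in tongue in all 14 shared members at an adjusted p under 0.05. Past 2-fold were 12 of 14 (85.7%, against 27.1% of all shared miRNAs), with a median of 2.42, and 10 of 14 under each of the 5 scalings. The 2 that missed, let-7e-3p and miR-98-3p, changed sign with no scaling. Together the members made up 1.76% to 1.88% of the listed reads in liver and 5.85% to 6.71% in tongue. let-7i stood at 2114, 1695, 1840.0, 2042 and 1774 in liver and 17328, 17782, 17510.4, 21357 and 18280.0 in tongue (3.29 ± 0.09, edgeR adjusted p against 2-fold = 1.87e-08). let-7a-5p differed by 2.32 ± 0.08, let-7f by 1.92 ± 0.07 and let-7g by 2.52 ± 0.07. Members with related sequences can share reads, so they are not independent. The median in muscle against liver was 1.79.

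The miR-99, miR-100 and miR-125 miRNAs, which are co-transcribed with let-7 members, were also higher in tongue. All 11 had an adjusted p under 0.05 and 8 were past 2-fold, with a median of 1.41, but 4 of the 8 held under each scaling. miR-125b, the vertebrate form of the worm lin-4, stood at 1344, 1032, 925, 1051 and 1239 in liver and 11985, 11232, 9883, 10981 and 10111 in tongue (3.29 ± 0.09). miR-100 differed by 1.82 ± 0.16, miR-125a by 1.41 ± 0.11 and miR-99b by 1.34 ± 0.10, and these 3 lost the 2-fold call with no scaling, miR-125a and miR-99b also with upper-quartile scaling and miR-99b with RLE scaling.

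miRNAs of the miR-424 cluster, known from muscle differentiation and placed on the X chromosome, gave 5 of 8 past 2-fold higher, 2 of them under each scaling. miR-424-5p, at 0.94 ± 0.08, fell short of the call. miR-542-3p differed by 1.84 ± 0.12 and miR-450a by 1.16 ± 0.09. With no scaling miR-542-3p was at 1.12 and lost its call, and miR-450a lost its call without fetus 2, 3 or 4 and under each other scaling. miR-450b, at 0.25 ± 0.08, had a 95% interval within 0.5 of 0 and changed sign with no scaling. The oncogenic miR-17, miR-106 and miR-25 clusters, active in dividing and blood-forming cells, gave 3 of 19 past 2-fold lower (15.8%, against 19.5%) and none higher. miR-92a was the abundant one, at 45770.5, 45505, 42945, 44622 and 49101 in liver and 12242, 10154, 10438, 8306 and 11034 in tongue (-2.14 ± 0.10, edgeR adjusted p against 2-fold = 8.78e-07), with every tongue below every liver. Co-transcribed members differed less, miR-19b by -0.08 ± 0.09, and miR-25 differed by -0.73 ± 0.07. miR-93 was past 2-fold at -1.27 ± 0.14, but not without fetus 2, 3 or 5.

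In the miR-15 and miR-16 family, which slows the cell cycle, 2 of 7 were past 2-fold lower, among them miR-15a at -1.16 ± 0.09, and 1 higher, miR-195 at 1.26 ± 0.11, a call that did not hold under each scaling (0.54 with none). The call of miR-15a was lost without fetus 2, 3 or 5. miR-16b differed by -0.79 ± 0.09, miR-16a by -0.55 ± 0.09 and miR-15b by -0.38 ± 0.13, the last not called without fetus 2, 3 or 5. With TMM scaling none of 10 miR-30 miRNAs passed 2-fold. The 1 member higher at an adjusted p under 0.05, miR-30a-5p at 0.54 ± 0.11, changed sign with no scaling. The median of the miR-30 list was -0.47, and -1.19 with no scaling. miR-30d (-0.49 ± 0.12), miR-30c (-0.50 ± 0.07) and miR-30e-5p (-0.50 ± 0.09) were lower by less than 2-fold. miR-34a, a target of p53, was lower in tongue (-1.71 ± 0.17) and miR-34c, of ciliated epithelium, higher (1.30 ± 0.17), and the latter call was lost without fetus 1, 2 or 3 and under 3 of the scalings. miR-449a, with the same seed, was listed in tongue and not in liver, at 8.55 ± 6.00 CPM.

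Some of the largest differences lay outside these lists. miR-378, in an intron of the mitochondrial regulator gene PPARGC1B, stood at 954, 1007, 869, 836 and 1037 in liver and 23796, 30937, 25149, 33592 and 32024 in tongue (4.94 ± 0.12, edgeR adjusted p against 2-fold = 1.25e-08). Its other arm, miR-378-1-5p, differed by 5.51 ± 0.18 and miR-378c by 4.57 ± 0.12. miR-1247-5p differed by 5.81 ± 0.20 and miR-504, in an intron of FGF13, by 4.48 ± 0.14. miR-1247-5p stood at 4.25, 2.81, 5.41, 4.69 and 4.40 in liver and 260.3, 261, 329, 146 and 237 in tongue, so its livers were close to the lower end of the table.

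**Figure D4:**
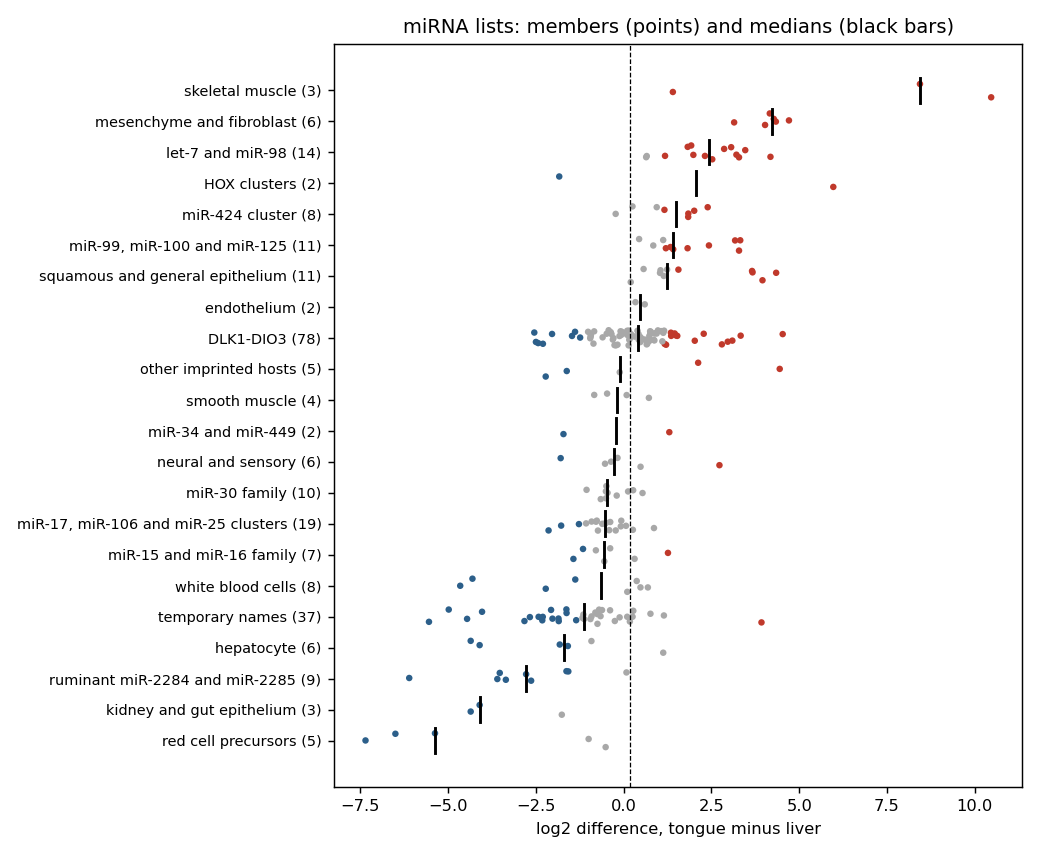
Log2 differences, tongue minus liver, of the members of 22 miRNA lists (number of shared members in brackets). Points are miRNAs, red and blue where past 2-fold higher and lower, black bars are list medians and the dashed line is the median of all 431 (0.18). With no scaling every point moves left by about 0.71, which puts the medians of the endothelium and DLK1-DIO3 lists below 0.

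The miR-2284 and miR-2285 family is a large one found in ruminants. Past 2-fold, 8 of 9 shared members were lower in tongue (88.9%, against 19.5% of all). All 8 held under each scaling, a check that could hardly remove lower calls. miR-2284w-3p differed by -3.53 ± 0.18, miR-2285bn by -3.60 ± 0.18 and miR-2285f by -1.63 ± 0.14. The exception was miR-2285bf at 0.08 ± 0.13. A further 32 members were listed in liver and not in tongue, and 0 the other way, beside 132 and 29 of all miRNAs. miR-2284x stood at 769, 784, 808, 789.7 and 742 in liver and 15.4, 8.85, 16.7, 5.75 and 11.9 in tongue (-6.10 ± 0.24, edgeR adjusted p against 2-fold = 4.37e-08). In muscle it was 0.71 against liver. Scaled together over controls 1 to 4, its level in tongue was 7.74 CPM, while liver stood at 732, kidney at 1194 and muscle at 1133. For miR-2285bn, by contrast, muscle was low as well, at 8.29 against 4.97 in tongue, 17.1 in kidney and 77.9 in liver. Over the members of the family listed in muscle, the median of muscle minus liver was -1.60.

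Entries with temporary names leaned the same way, with 16 of 37 past 2-fold lower (43.2%, against 19.5% of all) and 1 higher. A further 26 were among the 132 miRNAs listed in liver but not in tongue. The lower calls include miR-temp81-5p and miR-temp94-3p, whose counts were near-identical, so they may share reads. The median of the list was -1.12 in tongue and -1.18 in muscle, each against liver. miR-temp63-3p was the most abundant, at 21999, 21534, 22316, 22546 and 20845 in liver and 3418, 2866, 3198, 2481 and 3591 in tongue (-2.82 ± 0.11). miR-temp91-5p and miR-temp33-5p differed by -2.03 ± 0.13 and -2.30 ± 0.11. miR-temp1-5p was the 1 higher in tongue, from 307 ± 50.7 to 4629.9 ± 297 (3.93 ± 0.13). miR-temp61-5p (-5.54 ± 0.21), miR-temp66-3p (-4.98 ± 0.23) and miR-temp60-5p (-4.46 ± 0.13) were among the 10 most negative. That a temporary name means the same sequence in tables made separately is not stated in the sources used here.

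Levels were also set beside kidney and muscle, for the 374 miRNAs that the 4 tables share, in controls 1 to 4. Tongue was the lowest by more than 4-fold for 8 of them: miR-2284x, miR-2284w-3p, miR-10a, miR-191, miR-296-3p, miR-769, miR-temp60-5p and miR-temp9-3p. It was the highest by more than 4-fold for 0. Liver was the lowest by that margin for 24 and the highest for 15, against 5 and 2 in kidney and 1 and 1 in muscle. These 8 were chosen by their values and carry no test. miR-769 stood at 353, 399 and 359 CPM in kidney, liver and muscle and at 62.5 in tongue.

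Some miRNAs differed little. The 95% interval of the difference lay within 0.5 of 0 on the log2 scale for 48 miRNAs. The most abundant was miR-21-5p, widely made and raised in growth and repair, at 9123, 9014, 8681, 9417 and 8928 in liver and 7313, 6959, 6987, 9080.0 and 6995 in tongue (-0.28 ± 0.08). miR-26b (-0.07 ± 0.07) and miR-103 (-0.25 ± 0.07), both made from introns of widely expressed genes, were also among the 5 most abundant of these. Under other scalings they move with all miRNAs, by up to -0.71.

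Ratios of the arms of a precursor within a library do not depend on the scaling. Of 95 precursors with both arms in both tables, the ratio of the major arm (more reads over the 10 libraries) to the other differed for 70 (73.7%), 35 higher and 35 lower in tongue (36.8% each), by limma on the log2 ratio with Benjamini-Hochberg adjustment. The ratio moved over 2-fold for 24 of the 70. mir-127 moved most: reads of miR-127 over miR-127-5p were 16.6, 12.8, 11.3, 12.0 and 13.9 in liver and 458, 636, 433, 1026 and 527 in tongue, a log2 difference of 5.47 ± 0.21 (limma adjusted p = 9.10e-07). The miR-127-5p arm differed by -0.94 ± 0.14 in level, opposite in sign to its partner.

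By the mean ratio, the more abundant arm differed between tissues for 4 of the 70 called precursors: mir-1185, mir-708, mir-628 and mir-452. In mir-1185 the ratio of miR-1185 to miR-1185-3p was 0.432, 0.421, 0.445, 0.461 and 0.446 in liver and 2.98, 3.99, 2.88, 6.31 and 2.80 in tongue (3.03 ± 0.17, limma adjusted p = 3.45e-06). In mir-708 the ratio of miR-708-3p to miR-708 was 3.15, 2.64, 2.98, 2.95 and 2.64 in liver and 0.909, 0.872, 0.900, 0.524 and 0.869 in tongue (-1.84 ± 0.14). Livers lay on 1 side of an equal ratio and tongues on the other in both of these. The ratio of miR-628 to miR-628-3p was 1.01, 0.842, 0.654, 0.656 and 0.668 in liver and 1.38, 1.76, 1.64, 1.24 and 2.13 in tongue. The ratio of miR-452-3p to miR-452 was 1.71, 1.92, 1.86, 2.50 and 1.72 in tongue, and in liver it was above 1 in fetuses 2 and 3 and at 0.872, 0.963 and 0.905 in the other fetuses. For mir-628 and mir-452 the livers thus lay on both sides of an equal ratio, and the same arm led in both tissues of 1 fetus and 2 fetuses, respectively. The ratio was higher in tongue for mir-335 (1.30 against 6.50), mir-1388 (1.57 against 5.69) and mir-411c (2.41 against 7.67). It was lower for mir-296 (17.5 against 4.19) and mir-3957 (3.66 against 1.19).

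**Figure D5:**
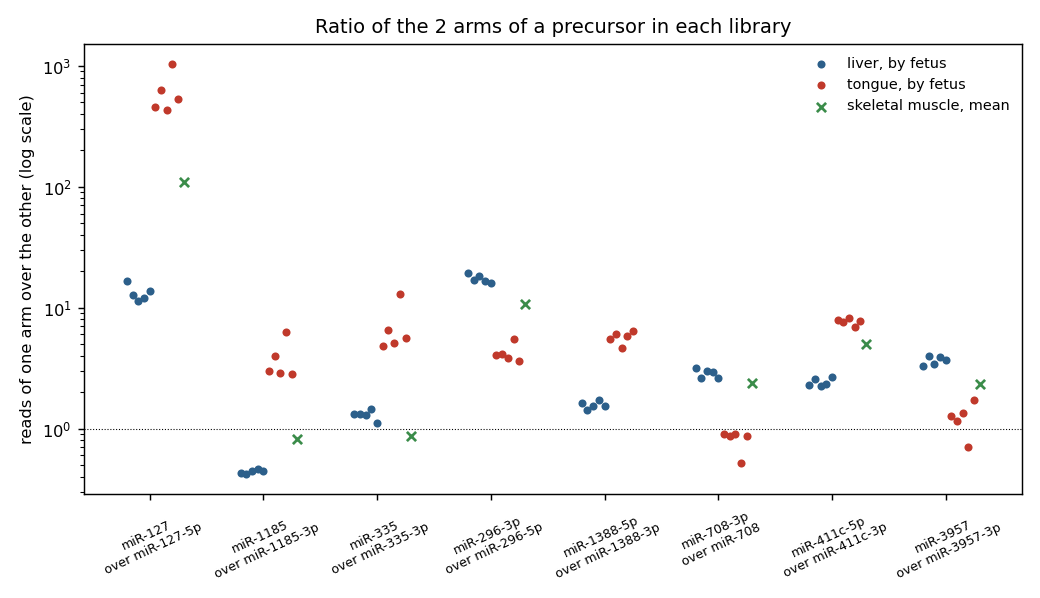
Reads of 1 arm over the other, log axis, for the 8 precursors with the largest called difference, by fetus in liver (blue) and tongue (red), with the muscle mean as a green cross where both arms are listed in muscle. The tissues do not overlap for any of the 8, and the dotted line marks an equal ratio.

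Over the 71 precursors with both arms in all 4 tables, the tongue ratio lay outside those of the other 3 tissues by more than 2-fold for 10, 5 above and 5 below. Those above were let-7e, mir-127, mir-151, mir-335 and mir-424. Those below were mir-145, mir-191, mir-296, mir-708 and mir-3957, so several of the largest differences from liver were also differences from kidney and muscle. The same count was 2 for liver, 1 for kidney and 2 for muscle. In mir-151 the ratio of miR-151-5p to miR-151-3p was 2.89 in tongue, while kidney stood at 0.907, liver at 1.02 and muscle at 1.02. In mir-145 the ratio of miR-145 to miR-145-3p was 1.59 in tongue, against 3.96, 4.93 and 4.23 in the same 3 others. The other 3 tissues stood close together in both. Tongue is also the only tissue whose processing notes name cutadapt, so for these ratios too tissue and processing cannot be told apart.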

How the data were processed

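The authors deposited raw counts of reads for each mature miRNA, as whole numbers, in 1 table per tissue. The submitters' processing notes name Bowtie and UMD3.1 (a cattle genome build) for all tissues and cutadapt 1.18 for tongue alone. The sources used here do not give the counting tool, the miRNA annotation or the floor for listing. Positions and sequences of miRNAs are not used here.

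Counts of the 431 shared miRNAs were fitted in R 4.3.3 with edgeR 4.0.16 (TMM, filterByExpr, which removed none, glmQLFit, glmQLFTest and glmTreat at 2-fold) with the fetus as a block, and library totals over all listed miRNAs. Arm ratios, log2((major + 0.5)/(other + 0.5)), were tested with limma 3.58.1. p-values were adjusted over all miRNAs or precursors tested. The fits of levels and of arm ratios were run on simulated data, and the other steps were not. The fetus numbers, which recur across tissues in the labels, were read as naming the same fetus. Deviations of same-numbered libraries from the tissue mean correlated at 0.0439 to 0.169, and of others at -0.298 to 0.101. Nothing more is said of dams or processing days. With the fetus as a block, p-values rest on the spread of the tissue difference over these fetuses as labelled. No pair of libraries of a group agreed within sampling noise.

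The members, the 22 lists and the rules were chosen with earlier results of these data known, so list counts and medians are descriptions. miRNAs named are the 10 largest differences past 2-fold in each direction (at least 50 CPM, same sign in 5 fetuses), the 5 most abundant per tissue, up to 4 of each list by abundance, the 5 most abundant with a 95% interval within 0.5 of 0, and the 8 largest arm differences. Others were chosen after their values were seen: miR-146a, miR-155, miR-183, miR-191, miR-195, miR-200b, miR-200c, miR-429, miR-494, miR-769, miR-323b-3p, miR-2285bf, miR-temp9-3p, the second arms, the miRNAs of 1 table, mir-151, mir-145, mir-628, mir-452 and the precursors let-7e, mir-191 and mir-424. Pairs of entries whose counts differed by under 15% in each library may share reads and are uncertain: miR-1260b and miR-temp72-5p, miR-154b and miR-323, miR-339a and miR-339b, miR-temp82-3p and miR-temp34-3p, miR-temp94-3p and miR-temp81-5p. miR-106b and miR-106b-3p, the arms of 1 precursor, were as close. Alternatives were other scalings, filters, DESeq2 1.42.0, limma-voom, all 9 tongue controls and leaving out each fetus.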

Additional observations from a re-analysis of the deposited data

Results flagged for a closer look

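For the named miRNAs, the 5 values of each tissue were searched for a library standing far from the other 4 (Dixon's test, gap over range above 0.71). This marked 21 of 186 groups tested, beside about 1 in 20 by chance, and the values of a tissue share libraries. In liver, fetus 2 stood above the other 4 in miR-296-3p at 227 (next 205) scaled CPM. In liver, fetus 3 stood above the other 4 in miR-150 at 316 (next 232) scaled CPM. In liver, fetus 4 stood above the other 4 in miR-141 at 101 (next 55.1), miR-215 at 785 (next 236) and miR-30d at 4714 (next 4274) scaled CPM. In liver, fetus 5 stood above the other 4 in miR-100 at 6305 (next 4616) and miR-148a at 72503 (next 63872) scaled CPM. In liver, fetus 5 stood below the other 4 in miR-378-1-5p at 3.45 (next 4.69) scaled CPM. In tongue, fetus 1 stood above the other 4 in miR-138 at 98.7 (next 51.0), miR-148a at 30184 (next 21147), miR-34c at 139 (next 87.7) and miR-375 at 231 (next 65.1) scaled CPM. In tongue, fetus 3 stood above the other 4 in miR-temp1-5p at 5144 (next 4594) scaled CPM. In tongue, fetus 4 stood above the other 4 in let-7a-5p at 21183 (next 17956), let-7g at 5399.8 (next 4774), let-7i at 21357 (next 18280.0), miR-126-3p at 4092 (next 2668) and miR-21-5p at 9080.0 (next 7313) scaled CPM. In tongue, fetus 5 stood above the other 4 in miR-10a at 1561 (next 739) scaled CPM. In tongue, fetus 4 stood below the other 4 in miR-296-3p at 29.8 (next 47.4) and miR-30d at 2231 (next 3087) scaled CPM. Fetus 4 gave 10 of the 21, fetuses 1 and 5 gave 4 each, fetus 3 gave 2 and fetus 2 gave 1. No sign of quality beside the counts was at hand, and the cause was not tested.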

How the results depend on the processing

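The 5 scalings gave the widest range. With no scaling, 128 miRNAs were higher at an adjusted p under 0.05 (207 with TMM) and 148 lower past 2-fold (84). Requiring a mean of 100 reads for both arms in each tissue left 54 precursors with 43 calls (70 of 95), since fewer were tested. The other alternatives kept both counts past 2-fold within 1.5 times. Leaving out 1 fetus gave 111 to 116 higher and 81 to 88 lower past 2-fold, 197 to 201 and 157 to 167 at an adjusted p under 0.05, and 57 to 67 arm calls, and 188 of the 201 calls past 2-fold held in all 5. The fit with no replicate block gave 208 higher and 167 lower, and 116 and 84 past 2-fold, with 199 of 201 kept. Of the pairing, 4 of 5 liver libraries correlated best with the tongue of their own number. DESeq2 gave 182 and 185, and 94 and 85 past 2-fold, limma-voom 207 and 167, and 108 and 81.

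The sign changed for 7 of the 93 miRNAs named by rule. It also changed with no scaling for miR-155, let-7e-3p, miR-98-3p, miR-2285bf and miR-1185. With no scaling, values were -0.15 for miR-31, -0.61 for miR-342, -0.38 for miR-126-5p, -0.12 for miR-126-3p, -0.63 for miR-143-5p, -0.47 for miR-450b and -0.18 for miR-30a-5p. With upper-quartile scaling, chosen after seeing the data, they were -0.29 for miR-342, -0.055 for miR-126-5p, -0.31 for miR-143-5p and -0.14 for miR-450b. miR-342 and miR-143-5p were at -0.075 and -0.092 with RLE scaling, -0.075 and -0.092 with DESeq2, -0.018 and -0.036 with a mean of at least 10 CPM in both tissues, and -0.064 and -0.081 with temporary names left out (also chosen after seeing the data). Leaving out 1 fetus, miR-342 lay between -0.0033 (without fetus 1) and 0.19. Apart from the scaling's own shift, the cause was not tested.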
